A study of Mus musculus with 32 samples.

Results

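The genes described here move bile acids through the liver cell or sense them. They are Slc10a1, Slco1b2, Slco1a1, Abcb11, Abcb4, Abcc2, Nr1h4, Nr0b2, Baat and Fabp1, and they were chosen by name: every probe of the array that is no control spot and carries one of these 10 gene names was taken. The array names 24185 genes, and the 10 are covered by 12 of its 55681 probes, with 2 probes each for Slc10a1 and Abcb4 and 1 for each of the other genes. Their mRNA was measured in 32 samples of 8 groups, with 4 samples in each group. The mice were young Balb/c males that received C26 colon carcinoma cells in the spleen, or PBS as controls. Endothelial, Ito (hepatic stellate) and Kupffer (resident macrophage) cells were isolated from livers with metastases (TME, tumor microenvironment) and from control livers, and were cultured before RNA was extracted. The CRC primary tumor (TP) and the tumor liver metastasis (TM) completed the set. The comparison of TME with control cells asks how the liver cells change beside a metastasis. Each two-colour array held a pair of samples, with Cy3 on all control and TM samples and Cy5 on all TME and TP samples, so that in TME against control and in TP against TM the dye and the condition cannot be told apart. Comparisons between groups of the same dye and slide do not carry that limit: endothelial and Ito samples shared slide 1, Kupffer and tumor samples slide 2. The study's text calls the 4 samples of a group biological replicates, and the labels number them without saying whether each came from a separate animal, so the p-values measure the spread between these samples.

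Bile acids are made from cholesterol in hepatocytes, conjugated with taurine or glycine, pumped into the bile canaliculus, taken up again in the intestine and returned by the portal blood. Uptake from the blood rests on the sodium-dependent transporter encoded by Slc10a1 (NTCP) and on the organic anion transporters Slco1b2 and Slco1a1, and export into bile rests on Abcb11 (the bile salt export pump), Abcc2 (MRP2, for conjugated organic anions) and Abcb4, which moves phosphatidylcholine into the canalicular membrane. The nuclear receptor FXR, encoded by Nr1h4, senses bile acids and induces Nr0b2 (SHP), which represses their synthesis. In the liver these are best known as genes of the hepatocyte, a cell type that none of the samples was meant to hold.

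Levels are log2 intensities of the authors' normalized table, and a probe is called well above background where the scanner program says so for that spot and channel. Nr1h4, Fabp1 and Slco1b2 were well above background in all 24 samples of liver cells, whereas Slc10a1 (10 of 24), Abcb11 (19 of 24), Abcc2 (17 of 24) and Slco1a1 (17 of 24) were so in part of them. In the 8 tumor samples only Slco1b2, in 2 samples, and the brighter probes of Abcb4 and Slc10a1 were. Fabp1 was 9.17-fold lower in TME than in control endothelial cells, which is the only member difference between TME and control that passed the test with all samples. Between cell types the uptake carriers and Abcb11 were higher in Ito than in endothelial samples. Among controls Slco1b2 and Abcb11 were so by 14.6-fold and 14.5-fold on these values, with Abcb11 well above background in 3 of 4 control endothelial samples. Between endothelial and Ito samples Nr1h4 did not pass on these values, but it passed among controls under another background correction.

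Marker genes did not separate the samples fully along their labels. The hepatocyte marker list (12 genes, among them Alb, Apoa1 and Ttr) had 10 to 12 members well above background in each liver sample and 1 or 2 in each tumor sample, where Alb was in none. Its mean log2 level ranged from 8.53 to 8.77 in control endothelial, 7.79 to 8.23 in TME endothelial, 10.97 to 11.77 in control Ito, 10.47 to 11.80 in TME Ito, 8.62 to 10.05 in control Kupffer and 9.20 to 9.89 in TME Kupffer samples. The Ito marker list did not set the Ito samples apart: its mean was 7.36 to 7.90 in control Ito and 8.41 to 8.70 in control endothelial samples, and Lrat was well above background in no TME Ito sample. All 8 Kupffer markers and all 8 endothelial markers were well above background in every liver sample. Of the cholangiocyte markers at most 3 of 6, and of the gut epithelium markers 1 to 3 of 6, stood above background in a sample, and Vil1 and Cdx2 did in none. On array 4 of the Ito and of the Kupffer cells, TME minus control ran opposite to the mean of the other 3 arrays (r = -0.66 and -0.60 over 17104 probes, against 0.19 to 0.28 and 0.41 to 0.47 for the others), so the results that rest on these arrays are given with and without them, a choice made after seeing the data. Whether the 2 channels of these arrays carry the RNA that their labels name was not tested, and the values of replicate 4 are given by their labels.

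The probe sequences are the bases from which values were read, and they were not aligned to transcripts. For Abcb4 the brighter probe is shown, while the member counts use the other one. Shown are the 4 probes that gave the values on uptake, phospholipid export, SHP and conjugation, whole, and the coding end of the Fabp1 probe with its stop codon in capitals. The last line gives, in capitals, the 30 bases of the brighter Slc10a1 probe that recur most in other probes of the array.
Slc10a1 (A_52_P69109): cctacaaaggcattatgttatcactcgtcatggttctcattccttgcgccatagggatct
Abcb4 (A_51_P249118): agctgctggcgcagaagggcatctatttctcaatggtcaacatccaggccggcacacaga
Nr0b2 (A_51_P265338): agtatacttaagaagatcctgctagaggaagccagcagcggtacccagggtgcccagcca
Baat (A_52_P43150): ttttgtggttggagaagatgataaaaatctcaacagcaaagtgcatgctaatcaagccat
Fabp1 (A_51_P487818), coding end: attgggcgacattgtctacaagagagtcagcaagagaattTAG
Slc10a1 (A_55_P1954987), shared stretch: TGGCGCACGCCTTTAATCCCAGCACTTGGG

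In mm9, the build of the files, A_52_P69109 lies at chr12:82061470-82061529 on the minus strand and the Fabp1 probe at chr6:71154906-71154965 on the plus strand. Those of Nr1h4 (chr10:88917222-88917281), Abcb11 (chr2:69076365-69076424), Slco1a1 (chr6:141856493-141856552) and Baat (chr4:49502933-49502992) lie on the minus strand, and those of Slco1b2 (chr6:141634476-141634535), Abcc2 (chr19:43912079-43912138) and Nr0b2 (chr4:133109694-133109753) on the plus strand. In the reading frame shown, which was picked because it holds a stop, the Fabp1 probe spans a stop codon, while 2 frames hold none. That frame was not set against the transcript. The exon of the probes was not determined either, since no annotation of that build was used here. The other Slc10a1 probe, at chr12:82056539-82056598, is assigned by the files to transcripts of 4 genes (Slc10a1, 4930402H24Rik, Spc24 and Med16) and shares words of 20 bases with probes of 3 other genes. It was well above background in all 32 samples, tumors included, at log2 levels from 13.56 to 18.16. Its shared stretch is of the kind found in the B1 repeats that are scattered over the mouse genome. Levels of Slc10a1 are therefore read from A_52_P69109, which is also the probe with the higher variance, the rule used here for genes with several probes and the one the study's methods give for setting genes beside proteins. For Abcb4 that rule takes A_55_P1978696 (chr5:8899682-8899741, transcript AK165484), which was well above background in 1 of 32 samples, while A_51_P249118 (chr5:8959108-8959167, transcript NM_008830) was so in all 32, and both are given.

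The promoters of Fabp1 and Slco1b2 are shown because both members were well above background in all 24 liver samples and hold the letters TATAAA of the TATA box, at whatever distance from the start. Of the 10 genes, 9 had a promoter in the RefSeq table (10 promoters, build GRCm38.p6), and both are printed from 250 bases before to 30 after the start. Capitals mark TATAAA, searched on both strands.
Fabp1 (chr6:71199629-71199908, plus strand): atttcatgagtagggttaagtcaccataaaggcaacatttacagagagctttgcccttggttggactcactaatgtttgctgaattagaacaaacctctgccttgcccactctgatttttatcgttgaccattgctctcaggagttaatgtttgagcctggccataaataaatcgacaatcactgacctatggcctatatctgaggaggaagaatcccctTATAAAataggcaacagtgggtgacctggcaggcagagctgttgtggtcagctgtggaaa
Slco1b2 (chr6:141629268-141629547, plus strand): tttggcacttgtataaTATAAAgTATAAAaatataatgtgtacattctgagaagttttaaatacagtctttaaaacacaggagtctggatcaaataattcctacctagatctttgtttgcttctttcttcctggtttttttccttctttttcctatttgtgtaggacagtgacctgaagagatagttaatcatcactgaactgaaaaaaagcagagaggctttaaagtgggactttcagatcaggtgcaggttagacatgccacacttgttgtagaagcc

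TATAAA stood in 5 of the 10 member promoters (those of Fabp1, Nr0b2, Slc10a1, Slco1a1 and Slco1b2) and in 13.6% of the 32851 promoters of the table. An HNF4 site (CAAAGTCCA, 0.475% of promoters), the inverted repeat of AGGTCA with 1 base between, which FXR is known to bind (0.00913%), and the direct repeat of AGGTCA with 1 base between (0.0396%), were in none of the 10. The last 2 patterns share the hexamer AGGTCA but not their other part. These are exact matches of letters in a short window, so a site with 1 base changed would be missed. They were set against no measurement.

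Slc10a1, the sodium-dependent bile acid carrier, was at log2 levels of 6.21, 6.42, 6.22 and 6.68 in the 4 control Ito samples and 6.20, 3.74, 6.12 and 5.97 in the TME Ito samples. In Kupffer cells it was at 5.45, 4.56, 2.33 and 3.67 in controls and 2.27, 3.33, 2.36 and 5.13 in TME. The Ito samples were high except for TME replicate 2, and the Kupffer samples were split, with control replicates 1 and 2 and TME replicate 4 well above background. Endothelial samples (2.21 to 3.17) and tumors (2.27 to 2.46) did not stand well above background in any sample.

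Slco1b2, the gene of the sodium-independent carrier OATP1B2, was at 6.86, 6.43, 6.59 and 6.90 in control and 5.74, 5.84, 5.58 and 5.75 in TME endothelial samples. In Ito cells it was at 10.29, 10.45, 10.60 and 10.92 in control and 11.11, 7.50, 10.88 and 10.24 in TME samples, and in Kupffer cells at 9.67, 9.57, 7.28 and 7.40 in control and 8.12, 8.21, 7.97 and 9.77 in TME samples. Each TME endothelial sample lay below each control endothelial sample, and the lowest Ito sample lay above all endothelial samples. Tumors were at 2.22 to 3.87 except for replicate 3 of TM (5.82) and of TP (6.36), the 2 tumor samples well above background. Slco1a1, the OATP1A1 carrier, ranged from 3.67 to 4.61 in control and from 2.15 to 3.91 in TME endothelial samples. Its means were 6.08 ± 0.18 (SD, n = 4) in control and 5.43 ± 0.95 in TME Ito samples, and 4.66 ± 1.62 and 4.95 ± 0.50 in Kupffer samples. Control Kupffer replicate 3 (2.25) lay at the level of the tumors (2.00 to 4.02), of which none was well above background.

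Abcb11, the bile salt export pump, was at 8.01, 8.01, 8.19 and 8.95 in control and 8.88, 5.40, 8.72 and 7.97 in TME Ito samples. It was at 6.90, 6.58, 4.28 and 5.92 in control and 5.58, 5.78, 5.94 and 6.76 in TME Kupffer samples, and at 4.39, 4.49, 4.33 and 4.53 in control and 2.10, 3.65, 2.08 and 2.83 in TME endothelial samples. The control and TME groups of endothelial cells did not overlap, those of the other cell types did, and the TME endothelial samples reached down towards the tumors (1.92 to 2.02). Abcc2 followed another order, with means of 6.71 ± 0.21 in control Ito, 7.08 ± 0.41 in TME Ito, 5.53 ± 0.34 in control endothelial, 4.35 ± 1.17 in TME endothelial, 4.07 ± 1.32 in control Kupffer and 3.75 ± 0.93 in TME Kupffer samples, so that endothelial and Kupffer samples overlapped. Endothelial and Kupffer samples lay on different slides, so their order is a description. The NM_008830 probe of Abcb4, the phospholipid transporter, was at means between 10.41 and 10.93 in the 6 liver groups and at 11.64 ± 0.90 in TM and 11.10 ± 0.19 in TP. Of the members well above background in all liver samples it is the one, beside the repeat-bearing Slc10a1 probe, that was so in every tumor sample.

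Nr1h4, the gene of the bile acid receptor FXR, was at 8.97, 9.55, 9.48 and 9.03 in control and 7.94, 8.30, 8.01 and 7.83 in TME endothelial samples. It was at 8.64, 8.50, 8.73 and 7.14 in control and 6.98, 7.92, 6.84 and 8.28 in TME Ito samples, and at 8.11, 8.10, 7.24 and 6.93 in control and 6.57, 6.51, 6.53 and 7.82 in TME Kupffer samples. The endothelial groups did not overlap, and in Ito and Kupffer cells array 4 ran against the other 3 arrays, with its TME sample the highest and its control sample the lowest of the group. By group means the order was control endothelial, control Ito, TME endothelial, control Kupffer, TME Ito, TME Kupffer, TM and TP, and the neighbours from control Ito to TME Kupffer overlapped. That order crosses slides and dyes and is a description. Nr0b2, the SHP gene that FXR induces, was well above background only in control Ito replicate 1 (4.43), and its other samples ranged from 2.19 to 4.08.

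Baat, which joins bile acids to taurine or glycine, was well above background in no sample. Its levels were 4.18, 4.10, 3.70 and 3.28 in control and 3.21, 3.77, 2.70 and 3.15 in TME Ito samples and 2.27 to 2.98 in all others. Fabp1, the liver fatty acid-binding protein that also binds bile acids, was at 11.96, 11.23, 11.11 and 11.84 in control and 8.83, 7.51, 8.41 and 8.60 in TME endothelial samples. In Ito cells it was at 12.23, 12.25, 12.23 and 11.40 in control and 11.32, 10.58, 11.10 and 12.12 in TME samples, and in Kupffer cells at 10.38, 10.24, 9.10 and 8.36 in control and 8.44, 8.25, 8.34 and 10.34 in TME samples. The gap between the endothelial groups was wider than the spread within either, and in Ito and Kupffer cells replicate 4 was again the lowest control and the highest TME sample. The tumors were at 2.02 to 2.36.

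**Figure D1:**
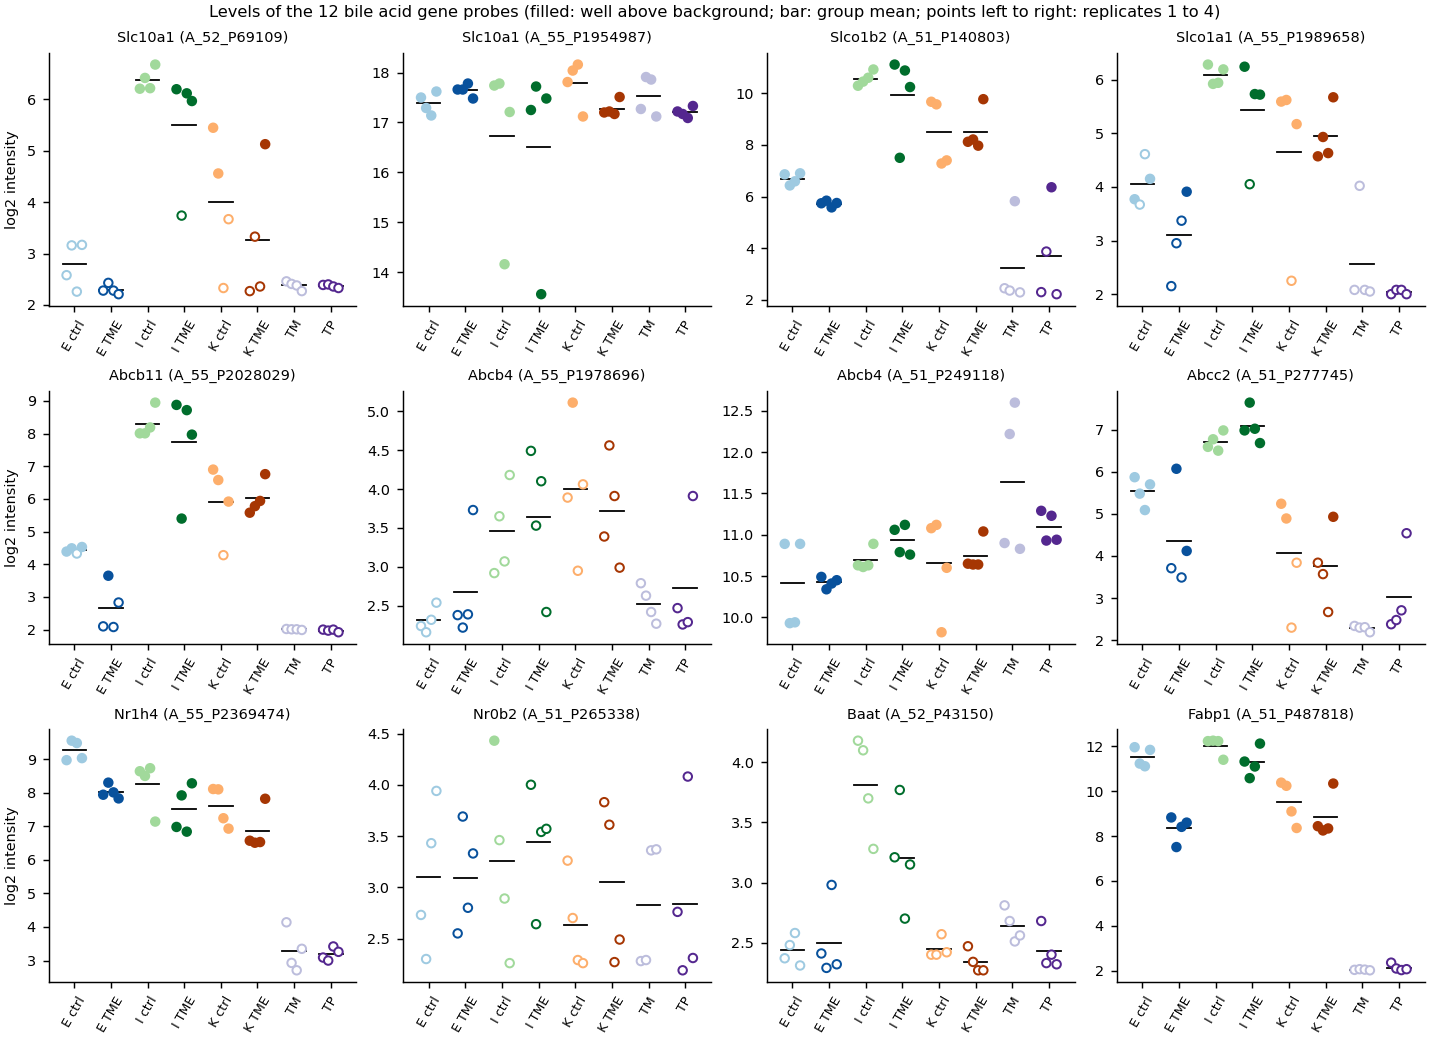
Log2 intensity (y axis) of the 12 probes in the 8 groups (E, endothelial; I, Ito; K, Kupffer; ctrl, control), 1 point per sample, filled where the spot was well above background, with a bar at the group mean. Nr1h4, Fabp1 and Slco1b2 are filled in all 24 liver samples, and the brighter Slc10a1 and Abcb4 probes in all 32 samples.

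In endothelial cells 1 of the 10 members passed the test for TME against control, against 1.14% of all probes (limma, adjusted p under 0.05 over 55681 probes), and it was lower, as were 0.564% of all probes. Fabp1 was lower by a log2 difference of -3.20 (SE 0.42, adjusted p = 5.39e-05), and on the 4 arrays its differences were -3.13, -3.72, -2.70 and -3.24. Nr1h4 differed by -1.23 (SE 0.38, 95% interval -2.01 to -0.46, adjusted p = 0.148) and Abcb11 by -1.77 (interval -2.89 to -0.65, adjusted p = 0.149), both below 0 on all 4 arrays, and neither passed. Of the 10 members 8 had a difference below 0, with a median of -0.96, while the median over all probes was 0.01. These include Slc10a1 (-0.49) and Nr0b2 (-0.01), which were well above background in no endothelial sample, so their signs carry no measured change. The same holds for the members above 0, Baat (0.07) and the Abcb4 probe used (0.36). The members' median was -0.19 and -0.23 under the background correction normexp with quantile and with loess normalization, with 8 below 0 in both. The groups of Fabp1, Nr1h4, Abcb11 and Slco1b2 did not overlap, 4 of 10 members against 13% of all probes. Without replicate 4 of the Ito and Kupffer cells, samples outside this comparison that enter the shared estimate of the spread, Nr1h4 passed too (-1.23, SE 0.26, adjusted p = 0.0129), which made 2 members against 1.64% of all probes. Among the hepatocyte markers 2 of 12 passed, Apoa2 (-2.09) and Ttr (-1.88), both lower, 11 of 12 were below 0 and Alb differed by -0.40. The median of the neutrophil markers' mean level was 5.30 in control and 7.66 in TME endothelial samples, and all 6 were above 0 (median 2.93), of which none passed with all samples and 3 did without replicate 4 of the Ito and Kupffer cells. The part of either list in the fall of Fabp1 was not tested, and fewer cells of a type and less RNA per cell cannot be told apart in these bulk samples.

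In Ito cells none of the 10 members passed with all 4 arrays, against 0.289% of all probes, 5501 of which had an unadjusted p under 0.05. The differences were -0.75 for Nr1h4 (interval -1.52 to 0.03), -0.75 for Fabp1 (-1.63 to 0.13), -0.61 for Baat (-0.99 to -0.22, adjusted p = 0.253) and -0.88 for Slc10a1 (-2.02 to 0.26). On the 4 arrays Slc10a1 differed by -0.01, -2.69, -0.11 and -0.71, and without replicate 2 its difference was -0.27. Slc10a1 was the one member whose groups did not overlap, with the highest TME sample at 6.20 and the lowest control sample at 6.21, against 8.92% of all probes. Without replicate 4 of the Ito and Kupffer cells, 3 members passed, against 7.66% of all probes, and all were lower in TME, as were 3.97%: Nr1h4 by -1.38 (SE 0.31, adjusted p = 0.00679), Fabp1 by -1.24 (SE 0.31, 0.0144) and Baat by -0.77 (SE 0.21, 0.0239). Baat was well above background in no Ito sample, so its differences have no measured size. With replicate 4 kept, 7 of 10 members were below 0 (median -0.62), and without it 8 (median -0.66). This shift rested on array 2: without replicate 2 of all groups 5 of 10 were below 0 (median -0.05), and without TME Ito replicate 2 and control Kupffer replicate 3 also 5 (median 0.00). None of the 12 hepatocyte markers passed in Ito cells either way, and their median difference was 0.05 with and 0.30 without these arrays. Other lists moved without these arrays: 5 of 6 neutrophil markers passed as higher in TME Ito cells (median 3.83), and 2 of 8 endothelial (median -0.89) and 1 of 8 Ito markers (median 0.36) as lower. With all arrays none of these passed, and their part in the member differences was not tested.

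In Kupffer cells none passed either, against 0.436% of all probes, with 4106 probes at an unadjusted p under 0.05. The differences were -0.74 for Nr1h4 (interval -1.52 to 0.04), -0.68 for Fabp1 (-1.56 to 0.20) and -0.73 for Slc10a1 (-1.87 to 0.41), and no member had groups that did not overlap, against 7.06% of all probes. Without replicate 4 of the Ito and Kupffer cells 2 members passed, against 3.85% of all probes, both lower, as were 2.10%: Fabp1 by -1.57 (SE 0.31, adjusted p = 0.00504) and Nr1h4 by -1.28 (SE 0.31, 0.0198). None of the 12 hepatocyte markers passed here, with a median difference of -0.01 with and -0.26 without these arrays. Without them 2 of 6 neutrophil markers passed as higher in TME (median 2.02) and 1 of 8 endothelial markers as lower (median -0.25), and all 8 Kupffer markers were above 0 (median 1.04) with none past the threshold. With all arrays none of these passed, and their part was not tested. On the 3 other arrays of the Ito and of the Kupffer cells, and on all 4 endothelial arrays, Nr1h4 and Fabp1 were the 2 members below 0 throughout. On array 4 both were above 0, Nr1h4 by 1.15 in Ito and 0.89 in Kupffer cells and Fabp1 by 0.71 and 1.98. The agreement therefore depends on leaving out that array.

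**Figure D2:**
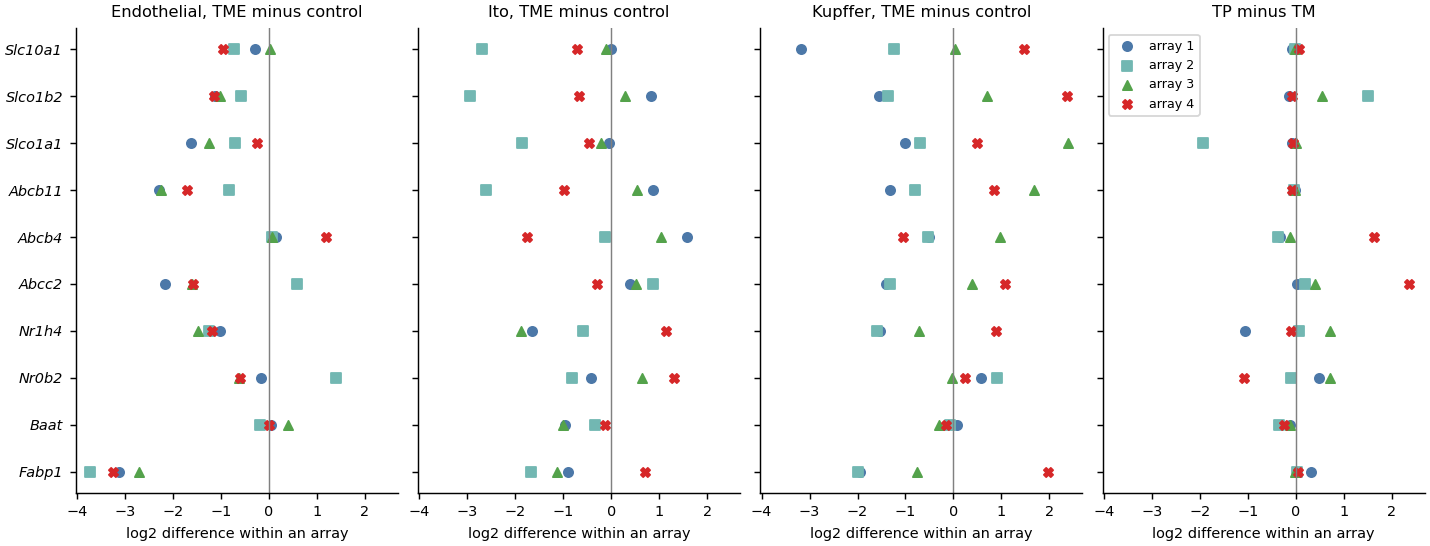
Log2 difference between the samples of an array (x axis), TME minus control for the 3 liver cell types and TP minus TM, for each member (y axis), with 1 marker per array and Abcb4 and Slc10a1 by the probe with the higher variance. Array 4 (red crosses) lies on the other side of 0 from arrays 1 to 3 for Nr1h4 and Fabp1 in Ito and Kupffer cells, and for both genes all 4 endothelial arrays lie below 0.

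Whether a change differs between cell types was tested as a contrast of the same fit, and with all samples no member passed, where 62 probes did for endothelial minus Ito change (0.111%), 45 for endothelial minus Kupffer (0.0808%) and 2 for Ito minus Kupffer (0.00359%). The change of Fabp1 in endothelial cells was -2.45 against that in Ito cells (SE 0.60, adjusted p = 0.146) and -2.52 against that in Kupffer cells (SE 0.60, adjusted p = 0.164). Without replicate 4 of the Ito and Kupffer cells they were -1.96 (SE 0.41, adjusted p = 0.0118), past the threshold, as 1.67% of all probes were, and -1.63 (SE 0.41, adjusted p = 0.0895), not past it, where 0.395% of all probes were. The same contrasts for Nr1h4 were 0.14 and 0.05 without that replicate (adjusted p = 1.00 for both).

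Control endothelial and control Ito samples shared the slide and the dye, and 5 of the 10 members passed between them, all lower in endothelial cells, against 9.89% of all probes called and 4.17% called lower. Abcb11 was lower by -3.86 (SE 0.54, adjusted p = 2.35e-05), Slco1b2 by -3.87 (SE 0.84, 0.00274) and Slco1a1 by -2.03 (SE 0.57, 0.0202). A group that stood above background on no array has no measured level, so the fold is then a lower bound: the dim group is set, array by array, to its own value or to the weakest signal that counted as well above background there, whichever is higher, and is compared with the mean of the other group. The bounds were taken from values under normexp with loess normalization, and the adjusted p-values beside them from the fit of the authors' values. Their sizes can therefore not be set beside the fitted log2 differences. Slc10a1 was at least 1.86-fold lower in control endothelial than in control Ito samples (adjusted p = 6.84e-05), and Baat, at means of 2.43 and 3.82, gets no fold because neither group rose above background (adjusted p = 1.57e-05). Of the 4 control endothelial samples, 3 were well above background for Abcb11 and 2 for Slco1a1, so both sizes depend on the floor of the signal. Over the alternatives Abcb11 ran from -3.97 to -2.19 and Slco1a1 from -2.27 to -0.78. Nr1h4 was on the other side, at 9.26 ± 0.30 in endothelial and 8.25 ± 0.75 in Ito samples, a difference of 1.00 (interval 0.22 to 1.78) that did not pass (adjusted p = 0.101). Under normexp with quantile and with loess normalization Nr1h4 did pass, as higher in endothelial cells. In both settings 7 members passed, 1 higher and 6 lower, against 10.2% and 10.9% of all probes called. Fabp1 differed by -0.49 (interval -1.37 to 0.38, adjusted p = 0.601).

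In TME samples of the same cells 7 members passed, all lower in endothelial cells, against 8.26% of all probes called and 3.48% called lower. Abcb11 was lower by -5.08 (SE 0.54, adjusted p = 5.16e-07), Slco1b2 by -4.21 (SE 0.84, 0.00153), Fabp1 by -2.94 (SE 0.42, 3.76e-05), Abcc2 by -2.73 (SE 0.56, 0.00201) and Slco1a1 by -2.34 (SE 0.57, 0.00896). Slc10a1 was at least 1.63-fold lower (adjusted p = 0.000326) and Baat was again below background in both (adjusted p = 0.0166). For Abcb11 1 of the 4 TME endothelial samples was well above background, so its size depends on the floor of the signal, and over the alternatives it ran from -6.19 without replicate 2 to -2.20 under normexp. Abcc2 ran from -3.12 to -1.09 and Slco1a1 from -2.80 to -0.61. Nr1h4 differed by 0.51 (interval -0.26 to 1.29) and did not pass. The hepatocyte markers moved with these members, and all 12 were below 0 for endothelial against Ito samples among controls and in TME. Of the 12, 10 passed as lower among controls (median -2.63) and 11 in TME (median -3.47). The part of these markers in the member differences was not tested. Without replicate 1, 3 members passed between the TME groups in place of 7, a count given without its share of all probes.

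Control Kupffer cells and TM tumors shared slide and dye as well, and 8 of 10 members passed, all higher in Kupffer cells, against 39.4% of all probes called and 16.2% called higher. Fabp1 was at least 11.1-fold higher (fitted log2 difference 7.48, adjusted p = 5.50e-14), Nr1h4 at least 2.88-fold (2.49e-10), Abcb11 at least 1.81-fold (8.64e-07) and Slco1a1 at least 1.25-fold (0.00352). For Slc10a1, Abcc2 and the dim Abcb4 probe the bounds were 1.07-, 1.08- and 1.03-fold. Slco1b2 differed by 5.25 (SE 0.84, adjusted p = 7.75e-06), with 1 of the 4 TM samples well above background, and over the alternatives ran from 2.34 under normexp to 6.52 without replicate 3. The brighter Abcb4 probe gave the reverse, -0.98 (SE 0.31, adjusted p = 0.0123), lower in Kupffer cells. In the fits without replicate 1 and without replicate 2, 5 members passed, counts given without their shares of all probes.

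Between TME Kupffer cells and TP tumors 5 members passed, all higher in Kupffer cells, against 43.6% of all probes called and 17.8% called higher. Fabp1 was at least 6.51-fold higher (fitted log2 difference 6.70, adjusted p = 3.88e-13), Nr1h4 at least 1.83-fold (4.62e-09), Abcb11 at least 1.58-fold (4.50e-07) and Slco1a1 at least 1.07-fold (0.000106). Slco1b2 had a fitted log2 difference of 4.83 (SE 0.84, 2.31e-05). The hepatocyte markers were higher in Kupffer cells too, and 11 of 12 passed against TM and 10 of 12 against TP. Between TP and TM none of the 10 members passed, against 3.01% of all probes, with 9117 probes at an unadjusted p under 0.05. Their median difference was 0.00, and the groups overlapped for 9 of 10 members, with Abcc2 the exception (2.38, 2.48, 2.71 and 4.54 in TP and 2.19 to 2.34 in TM, none well above background), against 10.6% of all probes without overlap.

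**Figure D3:**
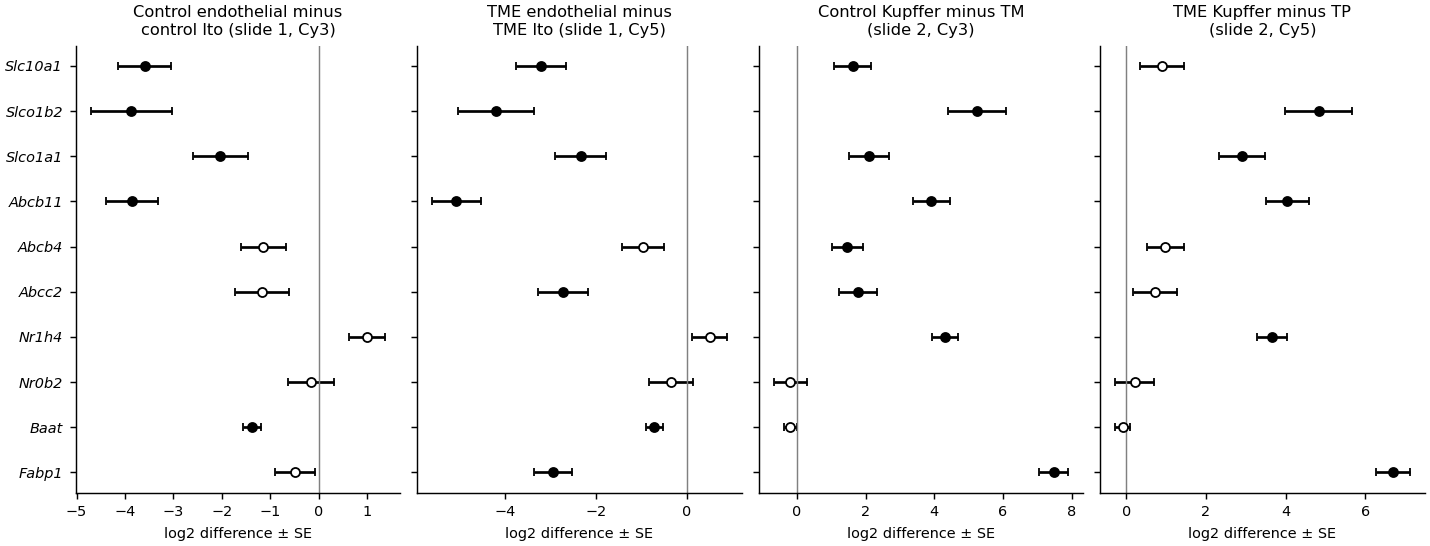
Fitted log2 difference with its standard error (x axis) for the 10 members (y axis) in the 4 comparisons within 1 slide and 1 dye, filled where the adjusted p was under 0.05, with Abcb4 and Slc10a1 by the probe with the higher variance. Nr1h4 stands right of 0 in both endothelial against Ito comparisons where Slc10a1, Slco1b2, Slco1a1 and Abcb11 stand at -2.03 or lower, and for a group below background the fitted value depends on the floor of the signal.

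Across the 32 samples the mean over the members was set beside the mean over the hepatocyte markers. Among liver samples the member mean was 4.01 to 4.49 in TME endothelial, 5.09 to 5.41 in control endothelial, 4.26 to 6.09 in control Kupffer, 4.69 to 5.82 in TME Kupffer, 6.80 to 6.98 in control Ito and 5.68 to 6.94 in TME Ito samples. The lowest Ito sample, TME replicate 2, had the lowest hepatocyte mean of that cell type (10.47), and the lowest Kupffer sample, control replicate 3, had the lowest of its own (8.62). These 2 samples also had the lowest shares of spots well above background of their cell types, 43.8% and 44.6%. Control Ito replicate 4 went the other way, with the highest hepatocyte mean (11.77) and the lowest member mean (6.80) of its group. Over the 24 liver samples Slco1b2 correlated with Abcb11 at r = 0.97, with Slc10a1 at 0.93 and with Slco1a1 at 0.89, but with Nr1h4 at -0.23, and Nr1h4 with Fabp1 at 0.54. These correlations describe points that share cell type, slide and dye.

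**Figure D4:**
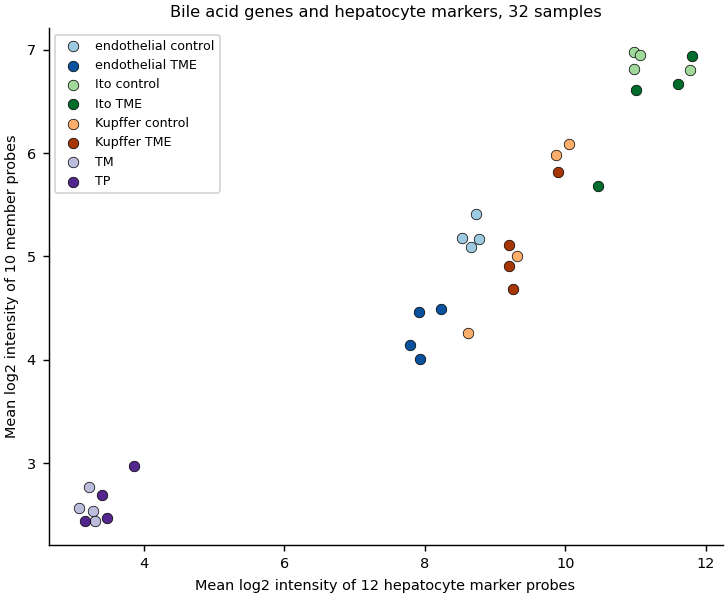
Mean log2 intensity of the 12 hepatocyte marker probes (x axis) and of the 10 member probes (y axis), 1 point per sample, coloured by group. The 8 tumor samples lie apart at 3.08 to 3.86 on the x axis, and the TME endothelial samples lie below the control endothelial samples on both axes.

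The genes whose pattern was most like that of the members were found by the correlation of each probe's level with the member mean over the 32 samples. Candidates were 21054 probes of named genes that are no members, each well above background in every sample of at least 1 group. Of a gene with several probes the closest was taken. The closest were C8b (r = 0.992), Ugt2b36 (0.991), Aadac (0.989), Cyp2a12 (0.989), Rdh7 (0.988), Ugt2b38 (0.986), C8a (0.982) and Ces1c (0.982). Over the 24 liver samples alone these were 0.98, 0.976, 0.981, 0.97, 0.97, 0.964, 0.955 and 0.967. C8a and C8b encode chains of complement component 8, and the Ugt2b genes encode glucuronosyltransferases. The samples fall into a liver and a tumor cluster, so these values are a description.

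The wider pathway was read from a list of 41 further genes. In endothelial cells 1 of 41 passed for TME against control, where 1.14% of all probes did. It was Slco2b1, another organic anion transporter, which was lower by -2.02 (SE 0.26, adjusted p = 2.87e-05). Slc27a5, the bile acid-CoA ligase that acts before Baat, differed by -1.36 (adjusted p = 0.250) there. In Ito and in Kupffer cells 1 of 41 passed, where 0.289% and 0.436% of all probes did. In both it was Acnat2, an acyltransferase related to Baat, which was higher in TME. Its fitted difference was 2.86 in Ito cells (adjusted p = 0.0415) and 3.65 in Kupffer cells (adjusted p = 0.00256). No control Kupffer sample stood well above background for Acnat2, and its bound there was 1.93-fold. Its relative Acnat1 was well above background in no sample. Without replicate 4 of the Ito and Kupffer cells 6 of 41 genes passed as higher in TME Ito cells and none as lower, where 7.66% of all probes were called. Of the 41 genes 13 had a difference below 0. Between TP and TM 1 of 41 was called, where 3.01% of all probes were. It was Akr1d1, a reductase of bile acid synthesis, which differed by 0.69 (adjusted p = 0.0120) with no sample of either group well above background.

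Among the genes of synthesis Cyp7a1, the rate-limiting enzyme, was well above background in no endothelial and no tumor sample, in all 4 control and 3 TME Ito samples and in 2 control and 1 TME Kupffer samples. Among controls it was at least 1.74-fold lower in endothelial than in Ito samples (adjusted p = 0.000128), and the bound in TME was 1.44-fold (adjusted p = 0.00387). Cyp8b1, which sets the share of cholic acid, was well above background in 1 control Ito and 1 control Kupffer sample. Cyp7b1, of the alternative pathway, behaved otherwise: it was at 11.41 ± 0.11 in control endothelial and 10.83 ± 0.50 in control Ito samples (difference 0.58, adjusted p = 0.320), and was at least 10.6-fold higher in control Kupffer cells than in TM (adjusted p = 4.01e-16). Cyp27a1 was at means of 3.12 to 5.30 in every group.

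In control endothelial against control Ito cells 12 of 41 genes passed, against 9.89% of all probes, 3 higher and 9 lower, where 4.17% of all probes were lower. The lower ones included Slc27a5 (-3.46, adjusted p = 1.66e-05), Slc27a2 (-3.03, 0.00282), Cyp2c70 (-2.74, 2.22e-05), which makes muricholic acids in mice, Hnf4a (-2.71, 4.93e-06), the hepatocyte nuclear factor, and Fgfr4, the hepatocyte receptor for the intestinal hormone FGF15, at least 2.21-fold (4.25e-05). In TME 15 passed, against 8.26% of all probes, 2 higher and 13 lower, with Hnf4a at -3.78 (5.18e-08) and Slc27a5 at -4.62 (2.75e-07). Nr5a2, which acts with SHP on Cyp7a1, was higher in TME endothelial than in TME Ito cells by 1.31 (adjusted p = 0.00751).

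Against TM, 22 of 41 genes passed in control Kupffer cells, where 39.4% of all probes did, 17 higher and 5 lower. Against TP, 23 passed in TME Kupffer cells, where 43.6% of all probes did, 17 higher and 6 lower. Nr5a2 was at least 12.8-fold higher in control Kupffer cells than in TM (adjusted p = 1.64e-16), and Abcc3, a basolateral exporter, was higher by 5.63 (9.32e-08) and Abcg2, a canalicular pump, by 6.19 (5.61e-10). Abcc4, another basolateral exporter, was lower in Kupffer cells than in TM by -2.81 (adjusted p = 3.99e-07), and so was the oxysterol hydroxylase gene Cyp39a1 by -5.85 (3.40e-12). Gpbar1, the membrane receptor TGR5 for bile acids, was well above background in all 32 samples, at means of 6.10 to 7.02, and was higher in TME Kupffer cells than in TP by 0.92 (adjusted p = 8.39e-05). Slc10a2, the intestinal bile acid carrier, was well above background in 3 samples, all of them Ito.

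**Figure D5:**
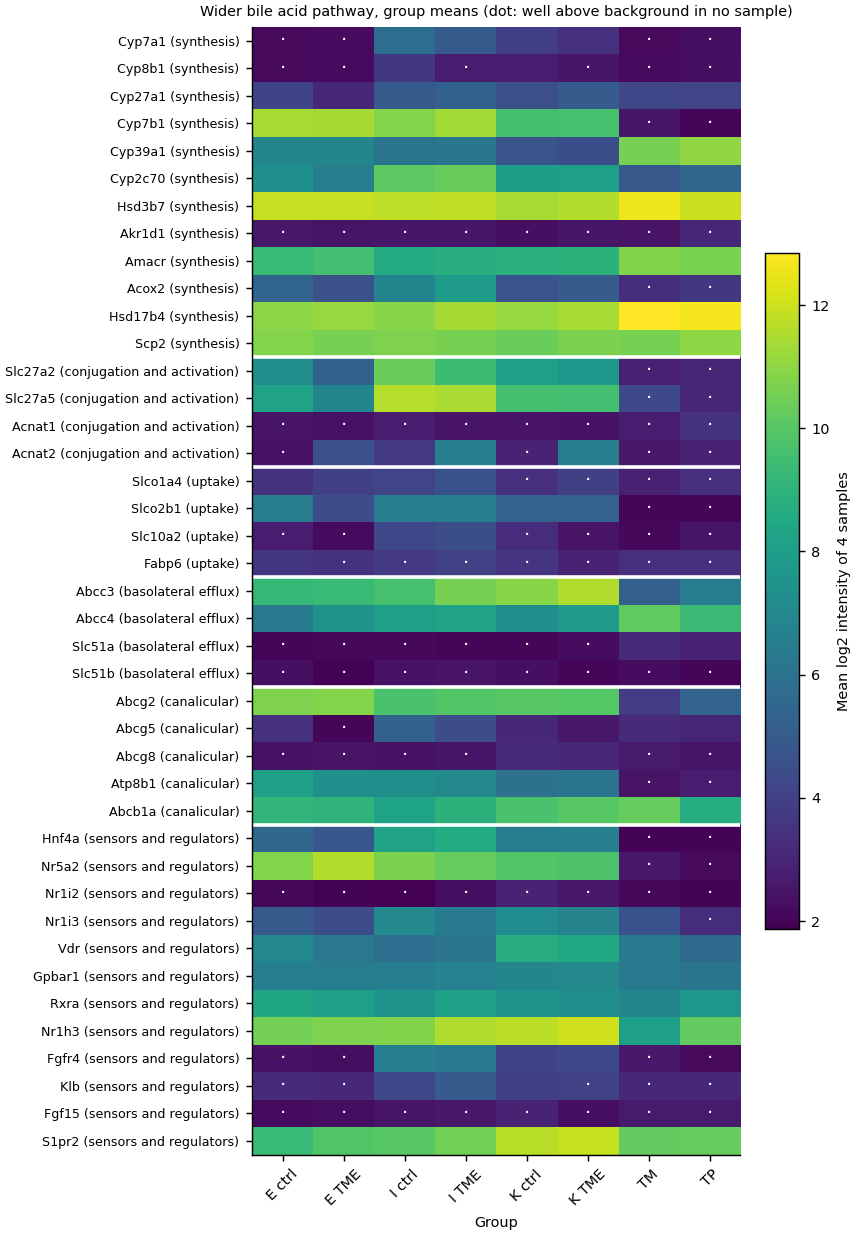
Mean log2 intensity of 4 samples (colour scale) for the 41 genes of the wider pathway (rows, with their role) in the 8 groups (columns), with a dot where the probe was well above background in no sample of the group. Cyp7a1 and Fgfr4 carry a dot in both endothelial and both tumor groups, and Gpbar1 in none; colours compare groups within a row, not genes.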

How the data were processed

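The 32 RNA samples were hybridised in pairs to 16 Agilent arrays (2 slides, 2 colours). The authors deposited, per spot and channel, the intensity values of Feature Extraction 10.7.3.1 (probe coordinates in mm9), and a table of intensity per probe and sample. That table is linear, and its ranks follow the processed signal of each channel (rank correlation of 0.9995 or more). The methods name quantile normalization, so its log2 was taken with no further step. The groups came from the labels. The shares of spots well above background ranged from 38.4 to 57.1% per channel, and no spot was saturated. With 4 arrays for each group, their number sets the precision.

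Groups were compared with limma 3.58.1 (lmFit and eBayes, R 4.3.3) in one fit of 8 groups, with Benjamini-Hochberg adjustment over 55681 probes and a limit of 0.05, and intervals are 95% intervals with 24 residual degrees of freedom. A gene with several probes was represented by the one with the highest variance, a rule the methods state for setting genes beside proteins. Named are all members, up to 5 pathway genes with the largest called differences in each comparison, 11 fixed pathway genes (among them Cyp7a1, Slc27a5, Gpbar1 and Hnf4a), and the 8 genes most like the members, with others after their values were seen. One gene of the pathway list is not reported here and was left out of its counts. The members and all lists were chosen with earlier results of these data known. Samples of one array share a replicate number, and their deviations from the group means correlated at 0.12 to 0.52, except for number 4 of Ito (-0.29) and Kupffer cells (-0.20). The array was tried as a block.

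Alternatives were the scanner signal with quantile normalization, normexp (offset 50) with quantile or with loess and Aquantile normalization, scaling to the 75th percentile, a filter on dim probes, only the groups compared, the methods' t-test, an adjusted p under 0.001 with 4-fold, the brightest probe, and each replicate left out. Sequences are from the probe column and the RefSeq promoter table. Probes that may lie in untranslated regions are not printed. Figures were drawn with matplotlib.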

Additional observations from a re-analysis of the deposited data

Results flagged for a closer look

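Among 96 sets of 4 samples (12 probes in 8 groups), 18 held a sample whose gap to the nearest other sample exceeded Dixon's limit as a share of the range of its group, where chance gives about 1 in 20. Replicate 4 made 11 of them. In TME Kupffer cells it was high for Fabp1 (10.34), Nr1h4 (7.82), Slco1b2 (9.77) and the A_51_P249118 probe of Abcb4 (11.04), and for the A_55_P1954987 probe of Slc10a1 (17.51). In control Ito cells it was low for Fabp1 (11.40) and Nr1h4 (7.14) and high for A_51_P249118 of Abcb4 (10.89). The A_55_P1978696 probe of Abcb4 was high in replicate 4 of TME endothelial cells (3.73) and of TP (3.91), and Abcc2 in replicate 4 of TP (4.54).

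Slc10a1 by A_52_P69109 was low in TME Ito replicate 2 (3.74), and the A_55_P1954987 probe was low in replicate 3 of control (14.16) and TME (13.56) Ito cells, which shared an array. Slco1a1 was low in control Kupffer replicate 3 (2.25), where Baat was highest of its group (2.57). In the tumors Slco1b2 was high in TM replicate 3 (5.82) and Slco1a1 in TM replicate 2 (4.02). What set these samples apart was not tested.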

How the results depend on the processing

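Of the 26 member differences that passed, all 26 kept their direction and passed with the scanner signal under quantile normalization, with normexp under quantile or loess normalization, with the 75th percentile, without replicate 3 and without replicate 4 of the Ito and Kupffer cells. In the other settings except the replicate block between 15 and 25 did. The fall of Fabp1 in TME endothelial cells passed in all 16 alternatives, from -3.36 to -2.96. These are not independent: for Fabp1 the brightest-probe setting repeats the main fit, and the stricter limits reuse it. No alternative separates dye from condition. With the array as a replicate block (correlation 0.078) all 26 passed, and none of the 54 others did, so the block changed no call. The share of all probes called moved between settings too, so a changed count of members alone is no result about the members. That share is given below for part of the settings. The count for TME against control in endothelial cells, 1 (1.14% of all probes), was 2 under both normexp settings (1.24% and 2.31%). It was 4 with only the groups compared (Fabp1, Nr1h4, Abcb11 and Slco1b2) and 3 by the methods' t-test. The count was 2 without replicate 4 of the Ito and Kupffer cells (1.64%), 2 without TME Ito replicate 2 and control Kupffer replicate 3, and 1 to 2 with each replicate left out. In Ito cells (0) it was 3 without replicate 4 of the Ito and Kupffer cells (7.66% of all probes), 1 (Baat) without TME Ito replicate 2 and control Kupffer replicate 3, and 0 to 3 with each replicate left out. In Kupffer cells (0) it was 2 without replicate 4 of the Ito and Kupffer cells (3.85% of all probes) and 0 to 2 with each replicate left out. Control Kupffer against TM (8) gave 5 with only the groups compared, 4 by the t-test, 4 at 0.001 and 4-fold, and 5 to 8 with each replicate left out. Control endothelial against control Ito (5) gave 7 under both normexp settings (10.2% and 10.9% of all probes), with Nr1h4 higher. It gave 7 with only the groups compared, 6 with the 75th percentile (11.1%), 6 by the t-test, and 2 at 0.001 and 4-fold. TME endothelial against TME Ito (7) gave 3 by the t-test, 3 at 0.001 and 4-fold, and 3 to 7 with each replicate left out. The count of unequal changes between cell types (0) was 1 without replicate 4 of the Ito and Kupffer cells. With the brightest probe Abcb4 turned to -0.98 in control Kupffer against TM, and Slc10a1, by its repeat-bearing probe, to 0.66 in control and 1.14 in TME endothelial against Ito cells. Apart from the left-out samples and the chosen probes, the cause was not tested. Baat, Nr0b2 and one Abcb4 probe lay near background, where differences have no measured size.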
